A study of Mus musculus with 4 samples.

Results

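The SLAM family is a group of cell surface receptors of lymphocytes, and SAP, encoded by Sh2d1a, is the small adaptor through which many of them signal. The 8 genes described here were chosen by symbol, namely Slamf1, Slamf6, Slamf7, Ly9, Cd48, Cd84, Cd244 and Sh2d1a, and all 8 had a row among the 17454 rows of the table. Cd244 is the older symbol of the gene that RefSeq now names Cd244a. The sequenced RNA came from hepatic double negative T cells, which express CD3 without CD4 or CD8. The cells came from adult C57BL/6 mice on a normal diet (2 libraries) or on a methionine-choline deficient diet (2 libraries), a diet used to model fatty liver inflammation. In both groups the sort had kept cells that excluded the dead-cell dye 7-AAD, carried CD45 and CD3, and lacked NK1.1, CD4 and CD8. The labels give no time on the diet and do not say whether libraries came from separate or pooled animals, so p-values describe the spread between these libraries, which may be technical.

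SLAM receptors resemble CD2 and cluster on a single chromosome. Most of them bind a copy of themselves on a neighbouring cell, while CD48, which is held in the membrane by a lipid anchor, binds CD244 and, in rodents, CD2. Tyrosine motifs in their tails recruit SAP or its relative EAT-2, and SAP in turn brings in the kinase FYN. In mice, signalling from SLAMF1 and SLAMF6 through SAP and FYN is needed in the thymus for natural killer T cells, and loss of SAP in humans causes X-linked lymphoproliferative disease.

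RefSeq promoter sequence (assembly GRCm38.p6) was matched for 6 of the 8 genes. The 250 bases before the annotated start are shown for the receptor gene with the largest difference between the diets (Slamf7, chr1:171649000-171649249 on the minus strand) and for 2 adjacent genes with values in opposite directions (Cd84, chr1:171839447-171839696 on the plus strand, and Slamf6, chr1:171917212-171917461 on the plus strand). Capitals mark matches to the motifs described next, and a sequence without capitals had no match.
Slamf7: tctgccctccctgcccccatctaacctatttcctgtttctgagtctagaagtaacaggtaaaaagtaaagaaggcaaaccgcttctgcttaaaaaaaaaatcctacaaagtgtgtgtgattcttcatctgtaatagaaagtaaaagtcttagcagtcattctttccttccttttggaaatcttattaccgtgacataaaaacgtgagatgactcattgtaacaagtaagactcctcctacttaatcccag
Cd84: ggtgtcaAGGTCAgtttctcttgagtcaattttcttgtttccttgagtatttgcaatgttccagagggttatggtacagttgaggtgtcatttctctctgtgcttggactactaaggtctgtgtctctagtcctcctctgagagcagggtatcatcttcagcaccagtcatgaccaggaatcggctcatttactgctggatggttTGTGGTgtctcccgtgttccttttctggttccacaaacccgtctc
Slamf6: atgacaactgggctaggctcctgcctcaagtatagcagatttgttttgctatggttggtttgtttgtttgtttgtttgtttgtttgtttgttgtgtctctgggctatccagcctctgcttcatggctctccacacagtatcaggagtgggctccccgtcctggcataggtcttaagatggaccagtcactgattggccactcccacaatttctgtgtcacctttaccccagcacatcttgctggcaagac

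The letters searched on both strands were GGTGTGA (T-box factors), TGTGGT (RUNX factors), CTTTGA (TCF and LEF factors), GGAAGT (ETS factors) and AGGTCA (a half-site of ROR and other nuclear receptors). Among 32817 RefSeq promoters of this length they occurred in 3.33%, 14.0%, 13.8%, 19.7% and 14.0%, respectively. The Cd84 window held AGGTCA beginning 243 bases before the start and TGTGGT beginning 45 bases before it, both on the strand of the gene. The Cd48 window, not printed, held 3 matches, of which the T-box and RUNX matches overlapped. The windows of Slamf7, Slamf6, Slamf1 and Cd244 held none of these letters. These matches describe the reference sequence only.

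The table's values were taken as FPKM, fragment numbers scaled by transcript length and library size, a scale on which genes of different length can be compared. The libraries summed to between 370112 and 389403 FPKM, and between 9712 and 10435 genes reached 1 FPKM. Read depth is unknown, because FPKM values keep no read counts. Transcripts of cells outside the sort were present at levels that differed within a diet. Summed over 8 listed macrophage and monocyte markers, the normal diet libraries had 146.8 and 2087 FPKM and the deficient diet libraries 1323 and 711.0 FPKM. The sort markers were as follows. Cd3e had 460.0 and 348.3 FPKM on the normal diet, compared with 496.1 and 700.3 FPKM on the deficient diet. Cd4 lay between 0.618 and 4.11 FPKM in the 4 libraries. Cd8a had 22.4 and 8.26 FPKM on the normal diet, against 0.836 and 1.42 FPKM on the deficient diet. Cd8b1 lay between 13.4 and 25.2 FPKM. Klrb1c, the gene of NK1.1, had 18.3 and 13.8 FPKM on the normal diet, against 5.34 and 2.96 FPKM on the deficient diet.

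On the deficient diet, 6 of the 7 receptor genes had both libraries below both normal diet libraries, and Cd84 had both above. Slamf7 fell, and it was the only member past an adjusted p of 0.05 in limma, a linear model fitted here to log2(FPKM + 1) of 10423 genes. In that comparison 1.53% of tested genes passed as lower and 1.22% as higher. At a looser adjusted p of 0.10, 5 of the 7 receptor genes passed as lower, against 4.62% of tested genes. Without regard to the test, 25.5% of tested genes had both deficient diet libraries below both normal diet libraries and 30.7% had both above. An unadjusted p under 0.05 was found for 6 of the 7 receptor genes and for 22.8% of tested genes. The median log2 change of the 7 receptor genes was -1.16, against 0.04 over all tested genes. Sh2d1a did not reach the filter of 1 FPKM in at least 2 libraries and was not tested. Fewer cells of a type and less RNA per cell cannot be told apart in these bulk libraries.

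**Figure D1:**
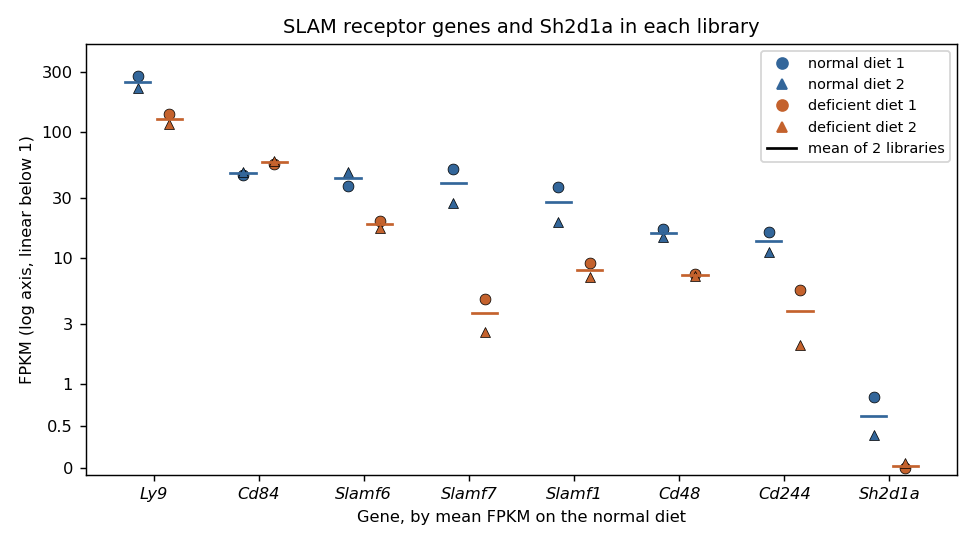
FPKM of the 7 SLAM receptor genes and Sh2d1a in each library (points; circles, replicate 1; triangles, replicate 2) with the mean of each diet (line), on a log axis that is linear below 1. Deficient diet points lie below the normal diet points for every gene plotted except Cd84, where they lie above.

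Slamf7 encodes a receptor of natural killer cells, activated T cells and plasma cells that in mouse natural killer cells signals through EAT-2. Slamf7 had 50.8 and 27.3 FPKM in the libraries of normal diet mice, against 4.73 and 2.59 FPKM in the deficient diet libraries. The lowest normal diet library stood well above the highest deficient diet library, although the normal diet libraries themselves differed widely. Slamf7 fell 10.7-fold by mean FPKM, from 39.1 ± 16.6 to 3.66 ± 1.51 FPKM (SD, n = 2 per diet). Its log2 change was -3.08 ± 0.39 (SE), with a 95% interval from -4.10 to -2.05 and an adjusted p of 0.0399 in limma. The Slamf7 call was lost without normal diet replicate 1 (adjusted p = 0.0888 in limma), without deficient diet replicate 1 (0.0948) and without deficient diet replicate 2 (0.249). In each such fit the lone library of a diet is assumed to vary like the pair of the other diet. It was also lost without the filter on low values (0.147), with the replicate number as a block (0.0608) and without the mean-variance trend (0.0535). Except in the last of these fits, no gene of the table passed in limma, so each call named for other genes was lost there too; between 1337 and 2712 genes had an unadjusted p under 0.05. Without normal diet replicate 2 it had an adjusted p of 0.0243, and across all alternatives the log2 change of Slamf7 lay between -3.51 and -2.31.

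Slamf1 and Slamf6 encode self-binding receptors that use SAP. Slamf1, also known as CD150, had 36.8 and 19.3 FPKM on the normal diet versus 9.11 and 7.05 FPKM on the deficient diet. The diets did not overlap, and normal diet replicate 1 was the highest library, as for Slamf7. By mean FPKM Slamf1 was 3.47-fold lower on the deficient diet, with a log2 change of -1.62 ± 0.35 (SE) that did not pass (limma adjusted p = 0.0861). Slamf6, also known as Ly108, had 37.6 and 48.0 FPKM on the normal diet, against 19.6 and 17.4 FPKM on the deficient diet. For Slamf6 the highest library was normal diet replicate 2, unlike Slamf1 and Slamf7. It was 2.31-fold lower by mean FPKM, with a log2 change of -1.16 ± 0.19 (SE) and a limma adjusted p of 0.0543. Slamf6 passed in limma when each library was centred on its median (adjusted p = 0.0486), with quantile normalization (0.0401) and with a filter of 5 FPKM (0.0461), and Slamf1 passed without normal diet replicate 2 (0.0371). In that last fit the spread comes from the deficient diet pair alone.

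Ly9 encodes SLAMF3, another self-binding receptor, and was the most abundant member in each library. Ly9 had 276.9 and 222.0 FPKM on the normal diet, compared with 138.1 and 116.4 FPKM on the deficient diet. The diets did not overlap. Ly9 was 1.96-fold lower by mean FPKM on the deficient diet, with a log2 change of -0.96 ± 0.18 (SE) that did not pass (limma adjusted p = 0.0668) except with quantile normalization (0.0433).

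Cd48 and Cd244 encode a ligand and its receptor. Cd48 had 17.0 and 14.8 FPKM on the normal diet versus 7.51 and 7.25 FPKM on the deficient diet, with a log2 change of -1.01 ± 0.19 (SE) and a limma adjusted p of 0.0677. Its libraries agreed closely within each diet and did not overlap between them. Cd244, the gene of 2B4, had 16.0 and 11.2 FPKM on the normal diet, against 5.58 and 2.02 FPKM on the deficient diet, with a log2 change of -1.69 ± 0.44 (SE) and a limma adjusted p of 0.116. Its deficient diet libraries differed from each other more than those of any other receptor gene on the log2 scale. Ly9 and Cd244 lie on opposite strands with overlapping gene bodies in GENCODE vM21, and strand use in counting is not given in the sources used here. In that annotation no word of 36 bases from the transcripts of either gene occurred in any other gene, on either strand.

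Cd84 encodes SLAMF5, a self-binding receptor found on many blood cells. Cd84 had 45.8 and 48.1 FPKM on the normal diet, compared with 56.1 and 59.4 FPKM on the deficient diet. The diets did not overlap, and Cd84 was the single receptor gene with higher values on the deficient diet. The difference was 1.23-fold by mean FPKM, with a log2 change of 0.29 ± 0.14 (SE), a 95% interval from -0.07 to 0.65 and a limma adjusted p of 0.294. The interval therefore excludes a fall of the size fitted for any of the other 6 receptor genes, the smallest of which was -0.96, though a change of 0 lies inside it. Within a library, the ratio of Cd84 to Slamf6 was 1.22 and 1.00 on the normal diet versus 2.86 and 3.41 on the deficient diet. The ratio of Cd84 to Slamf7 was 0.901 and 1.76 on the normal diet, against 11.9 and 22.9 on the deficient diet. With 2 libraries against 2, the smallest p an exact two-sided permutation test can give is 0.333, so these ratios were not tested.

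Sh2d1a was listed near 0. It had 0.849 and 0.391 FPKM on the normal diet, and was listed at 0 and 0.0604 FPKM on the deficient diet. The diets did not overlap, but each value was below 1 FPKM, and a value of 0 in this table does not show absence. Without the filter the log2 change of Sh2d1a was -0.64 (limma adjusted p = 0.228), and with each library rescaled to a sum of 1000000 it was -1.25 (0.247). In GENCODE vM21 Sh2d1a overlaps Tenm1 on the other strand, and 74.0% of its 36-base words occurred in no other gene, the lowest share among the 8 genes. For the 7 receptor genes that share lay between 92.3% and 100%. The part of shared sequence in the low level of Sh2d1a was not tested.

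Ly9 made up a similar share of the receptor transcripts in each library, and Ly9 and Slamf6 were the genes whose shares overlapped between the diets. The share of Cd84 was higher in both deficient diet libraries, and those of Slamf7, Slamf1, Cd48 and Cd244 were lower in both. The 7 receptor genes summed to 480.9 and 390.7 FPKM on the normal diet, compared with 240.8 and 212.2 FPKM on the deficient diet. Ly9 supplied 57.6% and 56.8% of the sum on the normal diet versus 57.3% and 54.9% on the deficient diet. Cd84 supplied 9.52% and 12.3% on the normal diet, against 23.3% and 28.0% on the deficient diet. The share of Slamf7 was 10.6% and 7.00% on the normal diet, compared with 1.97% and 1.22% on the deficient diet.

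**Figure D2:**
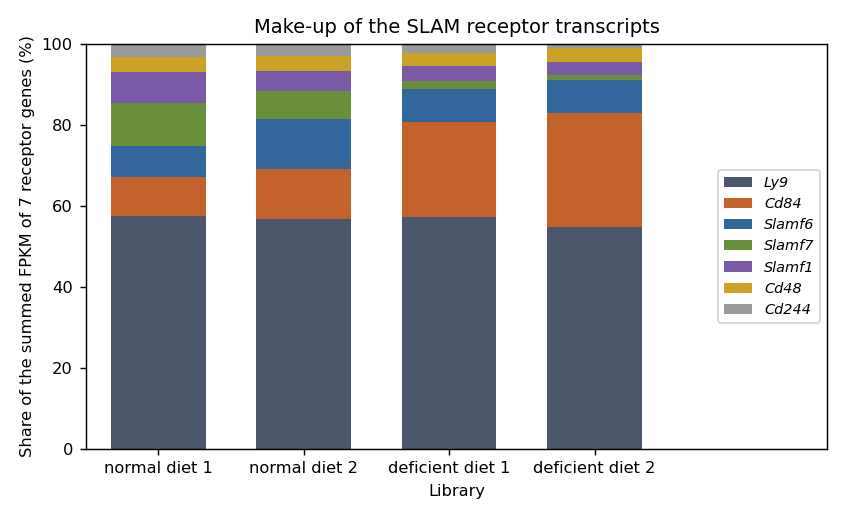
Share of each receptor gene in the summed FPKM of the 7 SLAM receptor genes, one bar per library. Ly9 takes between 54.9% and 57.6% in each bar, and the Cd84 segment is wider in the deficient diet libraries.

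The order of the levels below Ly9 also differed. In the normal diet libraries Cd84, Slamf6 and Slamf7 had overlapping ranges, from 27.3 to 50.8 FPKM, so no order among these 3 held beyond the spread. Slamf1, from 19.3 to 36.8 FPKM, lay below Cd84 and Slamf6 and overlapped with Slamf7. Cd48 and Cd244 followed with ranges that also overlapped, from 11.2 to 17.0 FPKM. In the deficient diet libraries the order Ly9, Cd84, Slamf6 held in both libraries with gaps larger than the spread. Slamf1 and Cd48 followed with overlapping ranges from 7.05 to 9.11 FPKM, and Slamf7 and Cd244 were lowest, from 2.02 to 5.58 FPKM. Slamf7 thus ranked above 86.3% and 75.3% of tested genes in the normal diet libraries and above 31.5% and 20.8% in the deficient diet libraries. Cd84 ranked above 84.8% and 85.4% on the normal diet versus 87.2% and 87.7% on the deficient diet.

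Among members, profiles over the 4 libraries were compared by Euclidean distance on the log2 scale after centring each gene on its own mean. Ly9 and Cd48 were the closest pair of the 7 receptor genes (distance 0.172) and Slamf7 and Cd84 the farthest (3.48). For Slamf7, the called member, the 3 nearest of all tested genes were Cd200r4 (distance 0.205), Fyn (0.230) and Chst2 (0.240). Cd200r4 had 24.0 and 14.2 FPKM on the normal diet, against 2.25 and 1.08 FPKM on the deficient diet. Chst2 had 18.2 and 11.5 FPKM against 1.62 and 0.611 FPKM. Both genes, like Slamf7, had their highest value in normal diet replicate 1 and their lowest in deficient diet replicate 2. Choosing genes by their distance to Slamf7 largely fixes this likeness.

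The receptor genes sit side by side on chromosome 1 of the mouse, so their neighbours were compared in the same fit. All 7 lie next to each other in the RefSeq order of the tested genes, and Sh2d1a lies on the X chromosome. Among the 10 tested genes on either side (20 in all), none passed in limma, and 4 had an unadjusted p under 0.05, against 6 of the 7 receptor genes and 22.8% of all tested genes. Of the 20 neighbours 5 had both deficient diet libraries below both normal diet libraries, 6 had both above and 9 overlapped. The shares over all tested genes were 25.5% below and 30.7% above. The neighbours' median log2 change was 0.00082, with a range from -1.05 (Alyref2) to 1.20 (Ccdc19). The 20 include Slamf9, itself a SLAM family gene, at 0.99 (limma adjusted p = 0.444). The next tested gene beyond Slamf6 was Ncstn, which encodes a subunit of gamma-secretase. Ncstn had 45.4 and 49.2 FPKM on the normal diet, compared with 70.5 and 88.5 FPKM on the deficient diet. This set and its examples were chosen after the values were seen.

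**Figure D3:**
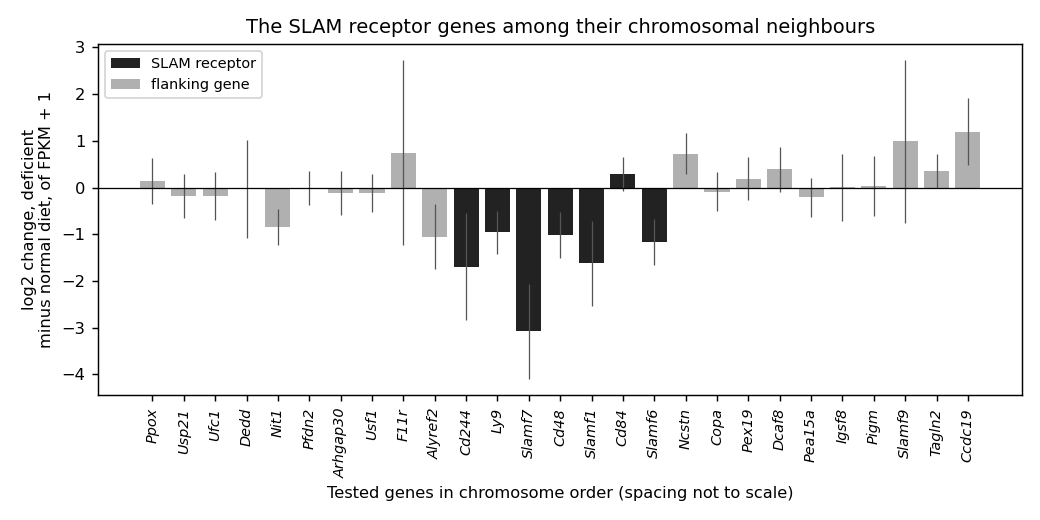
Log2 change of FPKM + 1 (deficient minus normal diet; bars with 95% intervals) of the tested SLAM receptor genes (black) and the 10 tested genes on either side (grey), in chromosome order. Receptor genes except Cd84 reach -0.96 or lower, while the grey bars run from -1.05 to 1.20 around a median near 0.

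CD2 and the remaining family members showed no called change in limma, and none of the 3 had an unadjusted p under 0.05. Cd2, an adhesion receptor that binds CD48 in rodents, had 544.3 and 472.7 FPKM on the normal diet versus 409.9 and 357.3 FPKM on the deficient diet, a log2 change of -0.41 (limma adjusted p = 0.225). Cd48 amounted to 3.13% and 3.12% of the Cd2 level on the normal diet, against 1.83% and 2.03% on the deficient diet. Slamf8 and Slamf9, receptors of myeloid cells, lay at or below 5.06 FPKM in the 4 libraries and overlapped between the diets. Both were lowest in normal diet replicate 1, the library with the lowest macrophage marker sum. Slamf8 was 0.657 there and 2.43, 5.06 and 0.688 FPKM in normal diet replicate 2 and deficient diet replicates 1 and 2. The part of myeloid cells in these values was not tested.

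Of 23 listed genes that act with SLAM receptors, 22 were tested. In limma 1 fell and none rose, against 1.53% and 1.22% of all tested genes. The one that fell was Fyn, the kinase that SAP recruits. Fyn had 74.8 and 48.2 FPKM on the normal diet, compared with 8.58 and 5.51 FPKM on the deficient diet, an 8.73-fold fall by mean FPKM with a log2 change of -2.95 ± 0.31 (SE) and an adjusted p of 0.0325. Its diets did not overlap. The median log2 change of the 22 was -0.25, against 0.04 over all tested genes, and 9 of the 22 had an unadjusted p under 0.05, against 22.8% of all tested genes. Of the 22, 11 had both deficient diet libraries below both normal diet libraries and 9 overlapped. Another 2 had both above (Ptpn11 and Inpp5d, named after their values were seen). Over all tested genes, 25.5% had both below and 30.7% had both above.

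Of the other signalling partners none passed. Lck, the kinase that phosphorylates the T cell receptor complex, had 453.3 and 396.9 FPKM on the normal diet versus 274.3 and 306.3 FPKM on the deficient diet, a log2 change of -0.55 with a limma adjusted p of 0.129. Ptpn6, the phosphatase SHP-1, had a log2 change of -0.92 (limma adjusted p = 0.0691), and Dok2, an inhibitory adaptor, one of -0.86 (0.0547). Each of these 3 genes had both deficient diet libraries below both normal diet libraries. The adaptor gene Grb2, named after its values were seen, had 148.0 and 126.7 FPKM on the normal diet, against 35.1 and 13.6 FPKM on the deficient diet (limma adjusted p = 0.0573). Sh2d1b1, which encodes EAT-2 and was also named after its values were seen, lay between 0.476 and 1.71 FPKM with overlapping diets. Sh2d1b2 was not analysed here.

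**Figure D4:**
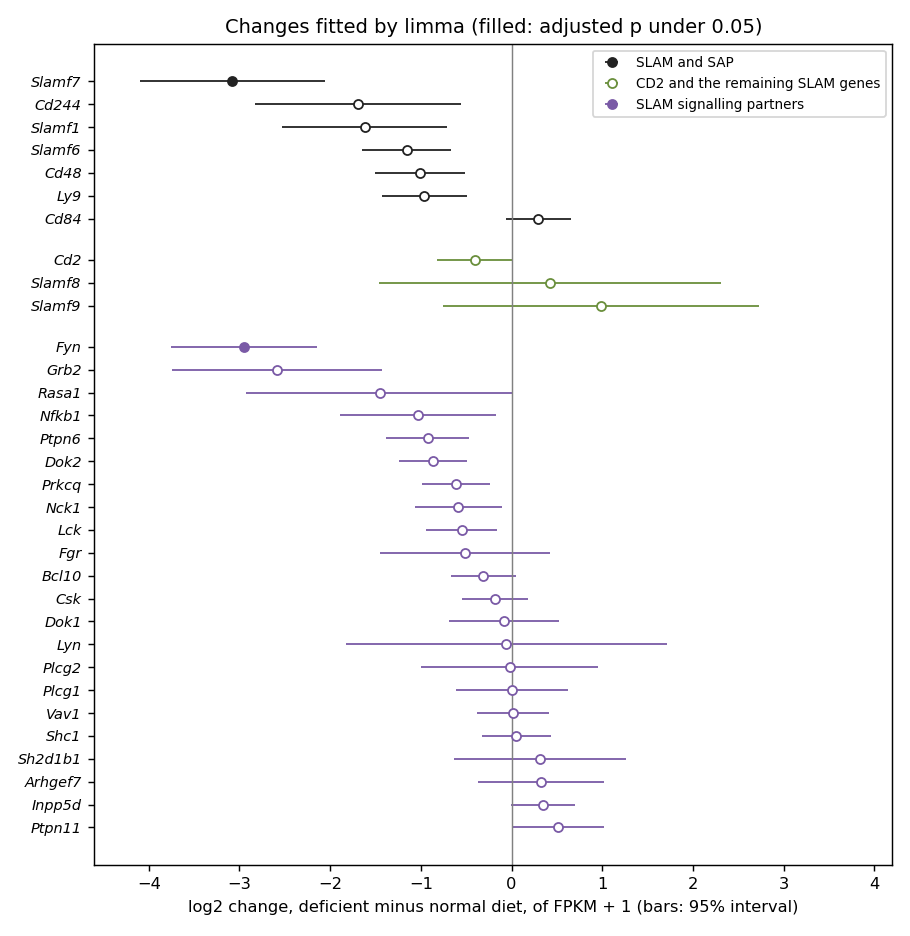
Log2 change of FPKM + 1 (deficient minus normal diet) with 95% intervals from limma for the 7 tested SLAM genes, CD2 with the remaining SLAM genes, and 22 signalling partners. Filled points, Slamf7 at -3.08 and Fyn at -2.95, passed an adjusted p of 0.05.

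Genes of T cell programmes that need SAP went both ways. Over all tested genes 1.53% fell and 1.22% rose in limma, and the median log2 change was 0.04. In a list of 12 genes of innate-like T cells, 2 fell and none rose in limma, and the median log2 change was -0.38. Ifng, the cytokine interferon gamma, fell 14.0-fold and Tbx21, the transcription factor T-bet, 5.65-fold by mean FPKM (limma adjusted p = 0.0323 for each). Il2rb, a chain of the interleukin 2 and 15 receptors, had a log2 change of -0.84 (0.112), and Egr1, an early response factor, one of 0.08 (0.928). In a list of 8 genes of follicular helper T cells, 6 were tested, 1 rose and none fell, and the median was 1.02. Icos, a costimulatory receptor, rose from 106.2 and 113.9 FPKM to 416.1 and 477.1 FPKM (limma adjusted p = 0.0290). Pdcd1, the receptor PD-1, had a log2 change of 1.58 (0.0586), Maf one of 0.57 (0.191) and Bcl6 one of -0.20 (0.599). Of 2 further members, named after their values were seen, Cxcr5, a homing receptor of follicular helper cells, had 11.1 and 22.6 FPKM against 1.83 and 3.43 FPKM, with the largest absolute log2 change of the 6 (-2.26, 0.0670). Il21, a cytokine of these cells that was not tested, was listed at 0 in both deficient diet libraries, against 0.339 and 1.76 FPKM on the normal diet.

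Summed markers of natural killer cells and of conventional T cells were lower in both deficient diet libraries, as were most receptor genes. The 8 natural killer cell markers summed to 510.5 and 437.4 FPKM on the normal diet, against 127.3 and 108.4 FPKM on the deficient diet. Of the 7 tested, 2 fell in limma (Klre1 and Klrd1), against 1.53% of all tested genes. Tyrobp and Fcer1g, shared with myeloid cells, overlapped between the diets. On the normal diet this sum was led by Klrd1, Klre1 and Klrk1. Ncr1, not tested and named after its values were seen, had 0.898 and 3.39 FPKM against 0.173 and 0 FPKM. No natural killer marker was at 0 in each library, and Klrb1c, the gene of NK1.1, had 18.3 and 13.8 against 5.34 and 2.96 FPKM. The 3 markers of conventional T cells (Cd4, Cd8a and Cd8b1) summed to 51.4 and 31.6 FPKM on the normal diet versus 14.8 and 17.8 FPKM on the deficient diet, and none passed in limma, with 2 at an unadjusted p under 0.05. Cd8a had 22.4 and 8.26 FPKM against 0.836 and 1.42 FPKM. The part of these cells in the lower receptor values was not tested.

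CD3 chain transcripts were not uniformly lower on the deficient diet. The 4 CD3 chain genes summed to 950.6 and 732.9 FPKM on the normal diet, against 811.1 and 1064 FPKM on the deficient diet, ranges that overlapped. Cd3e was higher in both deficient diet libraries, while Cd3d, Cd3g and Cd247 were lower in both, so the overlap of the sum came from Cd3e. None of the 4 passed in limma or had an unadjusted p under 0.05. Per 100 FPKM of CD3 chain transcripts, the 7 receptor genes amounted to 50.6 and 53.3 FPKM on the normal diet, compared with 29.7 and 19.9 FPKM on the deficient diet. With each library scaled to the CD3 chain genes, Slamf7 had a log2 change of -3.20 (limma adjusted p = 0.0403). Cd84 had one of 0.14 (limma adjusted p = 0.907), and the median of all genes moved to -0.09. Both the ratio and this scaling use the CD3 sum. Cd3e, the only chain higher on the deficient diet, made up the largest part of that sum in each library. Scaling without Cd3e was not tested.

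B cell and myeloid markers did not follow the same pattern. The 7 B cell and plasma cell markers in the table summed to 147.6 and 261.9 FPKM on the normal diet versus 460.4 and 433.9 FPKM on the deficient diet. This sum was led by Sdc1, which rose from 49.9 and 63.5 to 338.6 and 327.9 FPKM (limma adjusted p = 0.0290). Sums of macrophage, neutrophil, dendritic cell and hepatocyte markers overlapped between the diets, and each was lowest in normal diet replicate 1, where Slamf7 and Slamf1 were highest. The 5 platelet markers summed to at most 1.56 FPKM, with Gp9 at 0 in each library. The part of these cells in the receptor values was not tested.

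**Figure D5:**
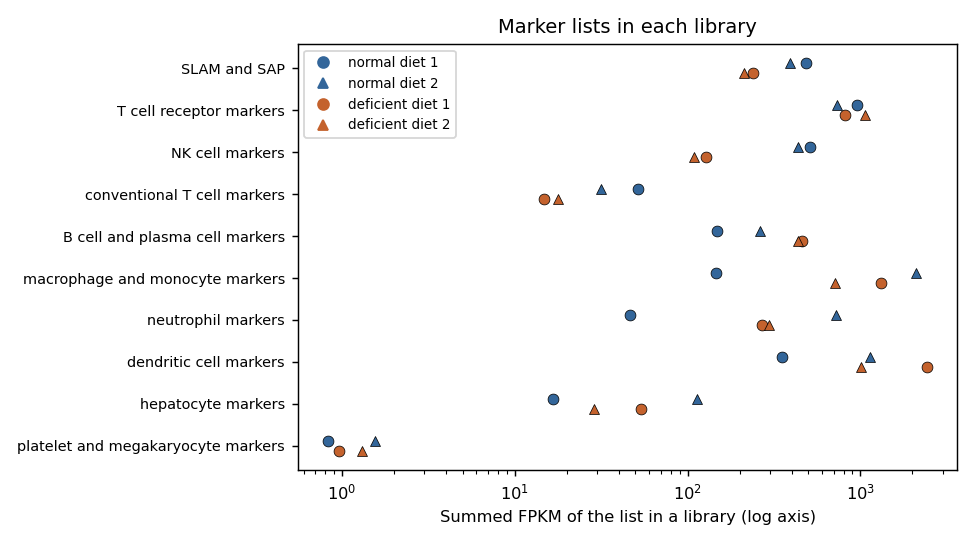
Summed FPKM of the SLAM genes with Sh2d1a and of marker lists in each library, on a log axis. Sums for the SLAM genes, natural killer and conventional T cell markers are lower in both deficient diet libraries, while the sums for CD3 chain, macrophage, neutrophil, dendritic cell, hepatocyte and platelet markers overlap between the diets.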

How the data were processed

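RNA from sorted cells was sequenced in 4 libraries, and groups follow the labelled diet, with columns matched by title. The deposited values were taken as FPKM from their range and sums; neither the header nor the labels name the unit. Per the submitters' processing notes, the tools include Bowtie 0.12.2 and the build is mm8; no source used here gives the quantifier or annotation. The 10423 genes reaching 1 FPKM in 2 or more libraries were analysed as log2(FPKM + 1) with limma 3.58.1 in R 4.3.3. The model had a mean-variance trend, diet as single factor, and 2 residual and 2.84 prior degrees of freedom. P-values were adjusted by Benjamini-Hochberg over all tested genes, with a threshold of 0.05. The fit was also run on simulated data with noise drawn for each gene separately. That run held no deviations shared across genes, so it does not show how sound the calls are here. Changes of low genes are understated on this scale. Folds are mean FPKM of one diet over the other.

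Members and lists were chosen with earlier results of these data known. The text names the 8 members, called list members, up to 4 abundant members per list (fewer for markers), sort markers and the 3 genes nearest to a called member; other names are said to be chosen after their values were seen, as was Gp9. Alternatives were other pseudocounts, filters, scalings, left-out libraries, a replicate block, no trend and an adjusted p of 0.10; scaling to CD3 genes and a crossed block were added after seeing the data. RefSeq promoters are from GRCm38.p6, and 36-base words and overlaps from GENCODE vM21, neither being the authors' build.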

Additional observations from a re-analysis of the deposited data

How the results depend on the processing

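None of the 7 tested members' log2 changes turned sign in any of the 16 alternatives, a direction that libraries without overlap largely fix. The member count of 1 became 2 with a filter of 5 FPKM, 2 when centred on the median, 3 with quantile normalization, 5 at an adjusted p of 0.10 and 0 in limma without a filter (8 of 8 at an unadjusted p under 0.05) or without the trend (6 of 7). With 1 library left out it ran from 0 to 2. Slamf7 stayed at -3.08 and missed the threshold without a filter (limma adjusted p = 0.147) and without the trend (0.0535); with 1 library left out its change ran from -3.51 to -2.64. At an adjusted p of 0.10, Slamf1 (-1.62), Slamf6 (-1.16), Ly9 (-0.96) and Cd48 (-1.01) also passed. Slamf6 passed at -1.16 with a filter of 5 FPKM, -1.19 with quantile normalization and -1.13 when centred on the median, and Ly9 at -0.96 with quantile normalization. With 1 library left out Slamf1 ran from -2.07 to -1.17. Over all genes, 127 higher and 159 lower calls became 0 and 0 without a filter (2712 at an unadjusted p under 0.05), 205 and 262 with quantile normalization, 57 and 84 without the trend, 430 and 482 at 0.10 and 30 and 102 scaled to the CD3 genes; with 1 library left out they ran from 0 to 207 and from 0 to 145. The count of 1 signalling partner became 0 without a filter, 2 with 5 FPKM, 3 with quantile normalization and 5 at 0.10, and ran from 0 to 1 with 1 library left out; the count of 3 in the innate-like and follicular helper lists became 0 without a filter and 9 at 0.10, and ran from 0 to 5. The cause of these shifts was not tested. Depth is unknown, so what it limits for low genes such as Sh2d1a cannot be stated.

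With the replicate number as a block limma called 0 genes higher and 0 lower (1844 at an unadjusted p under 0.05), 0 members (6 of 7), 0 signalling partners and 0 of the 2 T cell lists, and Slamf7 at -3.08 had an adjusted p of 0.0608. Nothing in the labels pairs the numbers, and same-numbered libraries deviated in opposite directions across genes (r = -0.28). With the numbers crossed, a block chosen after seeing the data, limma called 23 genes higher, 29 lower, 0 members, 0 signalling partners and 1 of the 2 lists, with Slamf7 at -3.08.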
